A study of Homo sapiens with 112 samples.

Results

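The CREB3 family comprises 5 genes for transcription factors that are anchored in the membrane of the endoplasmic reticulum (ER): CREB3, CREB3L1, CREB3L2, CREB3L3 and CREB3L4. They were taken by gene symbol from an RNA-seq table of 58684 genes, and all 5 were found in it. The table holds 112 libraries, 55 from VCaP and 57 from LAPC4, which are both human prostate cancer lines, and each line has 8 groups. All cells were first starved of hormone for 2 days in charcoal-stripped serum. They then received the solvent DMSO, 1 nM of the synthetic androgen R1881, R1881 with 500 nM of the antiandrogen darolutamide, or R1881 with 2 µM darolutamide, and were harvested after 8 h or 22 h. The VCaP groups held 10, 10, 4 and 5 libraries at 8 h and 8, 9, 4 and 5 libraries at 22 h, in that order of treatment. The LAPC4 groups held 10, 10, 5 and 5 libraries at 8 h and 7, 10, 5 and 5 libraries at 22 h. Both lines are established cultures, so each comparison describes 1 line and not a set of tumors.

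Proteins of this family cross the ER membrane once, with a basic leucine zipper that faces the cytosol. On a signal such as ER or Golgi stress they travel to the Golgi apparatus, where the proteases MBTPS1 and MBTPS2 cut them one after the other and free the DNA-binding part for the nucleus. The members are known for work in secretory cells: CREB3 in the Golgi stress response, CREB3L1 in bone and collagen secretion, CREB3L2 in cartilage and the export vesicles of the ER, CREB3L3 in liver lipid metabolism, and CREB3L4 in prostate and testis, where it was first described as a gene induced by androgen. The counts measure their mRNA and carry no information on cutting.

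Total counts ranged from 12188455 to 25201678 reads per library, with a median of 20144050.5. Marker genes matched the labels: ERG, which a gene fusion places under androgen control in VCaP, had from 117 to 1067 CPM (read counts scaled to a common library size) in VCaP and never exceeded 1 read in a LAPC4 library. KRT8, KRT18, HOXB13 and KLK3 were read in every library of both lines, while the leukocyte marker PTPRC reached at most 7 reads, the endothelial marker PECAM1 at most 8 and the fibroblast marker COL3A1 at most 16. The androgen response genes moved with R1881 at 22 h in both lines, as shown by FKBP5, a cochaperone, with a log2 fold change of 5.49 ± 0.04 (SE) in VCaP and 1.36 ± 0.04 in LAPC4. In these bulk samples, fewer cells with an mRNA and less of it per cell cannot be told apart.

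The genes lie on 5 chromosomes of GRCh38 in the GENCODE 44 annotation. CREB3 is at chr9:35732598-35736999 on the plus strand, CREB3L1 at chr11:46277662-46321409 on the plus strand, CREB3L2 at chr7:137874979-138002086 on the minus strand, CREB3L3 at chr19:4153631-4173054 on the plus strand and CREB3L4 at chr1:153967534-153974361 on the plus strand. The exons of CREB3 share 134 of 1635 bases with GBA2 on the opposite strand, and those of CREB3L4 share 373 of 2902 bases with SLC39A1 and JTB, also on the opposite strand. The libraries were made with a stranded kit, but the strand setting of the counting is not given in the sources used here, so counts of CREB3 and CREB3L4 could include reads of these neighbors. The exons of CREB3L1, CREB3L2 and CREB3L3 are shared with no other gene.

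The sequences before 3 start sites are shown because these genes went different ways with R1881 after 8 h: CREB3L2 and CREB3 rose and CREB3L1 fell. Each is the stretch of the 250 bases before a RefSeq start site (GRCh38.p14) that no annotated exon covers, written 5′ to 3′ on the strand of the gene. CREB3L2 is given at chr7:138002087-138002323 on the minus strand, CREB3 at chr9:35732416-35732597 on the plus strand and CREB3L1 at chr11:46294909-46295125 on the plus strand. The CREB3L1 start lies 17497 bases inside the gene as GENCODE draws it. Capitals mark matches, on either strand, to the cAMP response element (CRE) TGACGTCA, to its shorter core TGACG and to the CCAAT box.
CREB3L2: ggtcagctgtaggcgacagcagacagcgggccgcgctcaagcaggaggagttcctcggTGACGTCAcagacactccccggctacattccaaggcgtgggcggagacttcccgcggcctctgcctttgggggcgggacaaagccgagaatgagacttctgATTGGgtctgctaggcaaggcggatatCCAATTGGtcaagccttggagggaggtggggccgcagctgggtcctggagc
CREB3: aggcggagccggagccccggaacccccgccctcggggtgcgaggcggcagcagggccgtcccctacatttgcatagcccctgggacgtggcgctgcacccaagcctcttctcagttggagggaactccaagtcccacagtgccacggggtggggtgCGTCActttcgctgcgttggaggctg
CREB3L1: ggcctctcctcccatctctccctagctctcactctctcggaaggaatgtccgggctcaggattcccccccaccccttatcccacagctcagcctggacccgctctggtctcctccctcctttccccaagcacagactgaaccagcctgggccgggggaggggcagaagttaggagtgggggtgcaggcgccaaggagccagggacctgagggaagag

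CREB3L2 held the whole palindrome TGACGTCA, the kind of site that CREB and ATF factors are known to bind, at 179 to 172 bases before the start. The same palindrome occurs in 1.65% of 35116 RefSeq windows of 250 bases, and the palindrome contains the shorter core on both strands. CREB3 held the shorter core alone, at 94 to 90 bases before the start, as do 21.22% of windows including those with the palindrome. The CCAAT box, present in 32.01% of windows, had 3 matches in the CREB3L2 stretch, of which 2 overlap in CCAATTGG. The CREB3L1 stretch held none of these letters, and the window of CREB3L4 held neither the core nor a CCAAT box. The 6 letters AGAACA, the core of an androgen response element, occurred among the members only at a second CREB3L2 start, in the window chr7:137932989-137933238, and occur in 12.39% of all windows. These matches describe letters and not bound sites.

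Divided by the length of all exons of a gene joined, CREB3L4 mRNA was the most abundant of the family in both lines. In DMSO-treated VCaP cells at 22 h, CREB3L4 stood at 58.0 ± 3.14 CPM per kilobase (SD, n = 8), CREB3 at 13.8 ± 1.33, CREB3L2 at 8.52 ± 0.28 and CREB3L1 at 3.11 ± 0.33 CPM per kilobase, and no neighbors in this order overlapped. In DMSO-treated LAPC4 cells at 22 h the levels were 121 ± 4.02 CPM per kilobase for CREB3L4 (SD, n = 7), 32.4 ± 1.84 for CREB3, 31.4 ± 1.22 for CREB3L2 and 16.9 ± 2.02 for CREB3L1. There CREB3 and CREB3L2 overlapped, with 30.3 to 35.4 against 29.8 to 33.0 CPM per kilobase. After R1881 the order changed in VCaP: CREB3L2 reached 40.8 ± 2.21 CPM per kilobase at 8 h (SD, n = 10), above CREB3 at 22.2 ± 1.18, and at 22 h the 2 genes overlapped. The joined exon length is that of the annotation, and which transcripts the cells made was not measured.

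**Figure D1:**
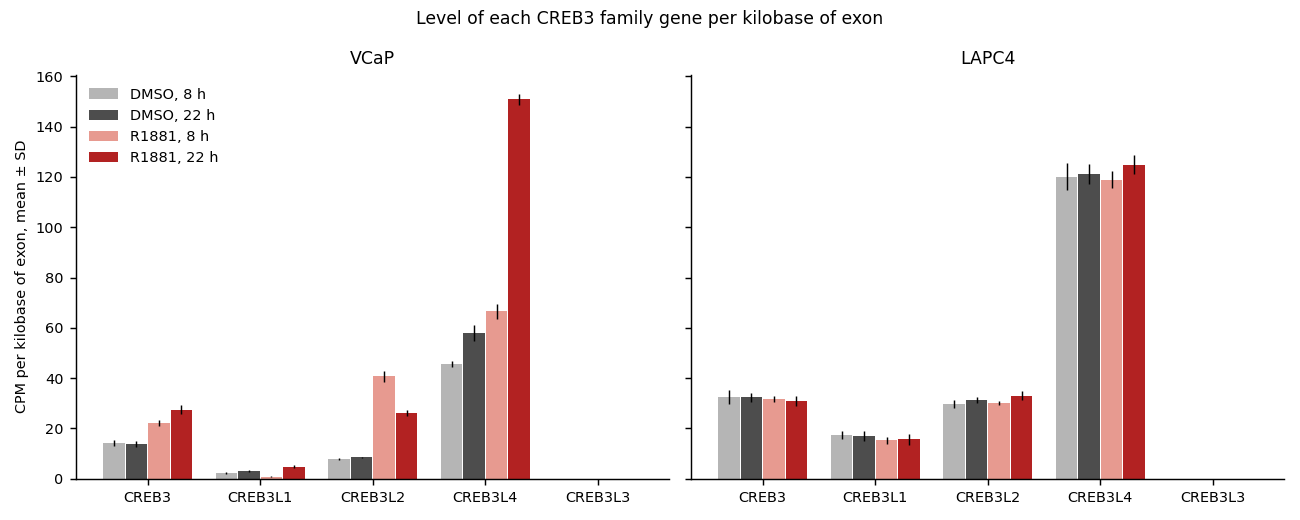
CPM per kilobase of joined exons for the 5 family genes (x axis) in DMSO and R1881 libraries of VCaP and LAPC4, with bars for group means and lines for 1 SD. CREB3L4 has the tallest bar in every group shown, 151 CPM per kilobase in VCaP after 22 h of R1881, and CREB3L3 has none.

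CREB3L3, the liver member, was not detectable at this depth. It was listed at 0 reads in 53 of 55 VCaP libraries and in 54 of 57 LAPC4 libraries, with 6 reads in VCaP and 4 in LAPC4 overall. A count of 0 allows up to 3 reads, which is 0.119 to 0.246 CPM over the libraries, and this limit covers counting error only. CREB3L3 did not reach 10 reads in any library, so it was not tested, and 4 of the 5 members entered each test, among 19266 genes in VCaP and 18204 in LAPC4.

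In VCaP cells, 22 h of R1881 raised all 4 tested members. CREB3L2 and CREB3L4 rose most, to 3.08 and 2.60 times the DMSO level, CREB3 to 1.99 times and CREB3L1 to 1.57 times. With edgeR's quasi-likelihood test, 4 of 4 had an adjusted p under 0.05. R1881 also changed 77.4% of all tested genes at 22 h, 37.4% up and 40.0% down, so a call alone says little about a gene in this comparison. By size of the rise, CREB3L2 ranked 743, CREB3L4 1025, CREB3 1858 and CREB3L1 3372 of 19266 genes. The median size of the log2 fold change over all genes, in either direction, was 0.525.

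CREB3L2, known for its part in the secretion of matrix by chondrocytes, had DMSO values at 22 h from 71.5 to 79.4 CPM with a median of 74.7 (n = 8). Its R1881 values ranged from 211 to 244 CPM with a median of 233 (n = 9). The groups did not overlap, and the log2 fold change was 1.62 ± 0.03 (SE, adjusted p = 3.66e-46). CREB3L4 lay between 154 and 181 CPM in DMSO, with a median of 168, and between 423 and 444 CPM in R1881, with a median of 438. Its libraries also fell into separate ranges, with a log2 fold change of 1.38 ± 0.03 (adjusted p = 4.14e-42). SLC39A1 and JTB, whose exons it shares in part, rose by less, with log2 fold changes of 0.71 ± 0.04 and 0.29 ± 0.04.

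CREB3, the founding member, ranged from 19.9 to 26.3 CPM in DMSO at 22 h (median 22.2, n = 8) and from 40.3 to 48.9 CPM in R1881 (median 44.7, n = 9). All R1881 libraries lay above all DMSO libraries, and the log2 fold change was 0.99 ± 0.05 (adjusted p = 1.53e-24). GBA2, its overlapping neighbor on the opposite strand, moved by a similar 1.13 ± 0.04, and the share of CREB3 reads that stem from it was not tested. CREB3L1, which drives collagen secretion in bone, ranged from 10.8 to 15.1 CPM in DMSO (median 12.2) and from 17.2 to 23.0 CPM in R1881 (median 19.1). It was the least abundant tested member in VCaP, and its log2 fold change of 0.65 ± 0.09 (adjusted p = 6.17e-09) was the smallest of the 4.

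At 8 h the members moved in opposite directions: CREB3L2 rose 5.19-fold, CREB3 1.57-fold and CREB3L4 1.46-fold, while CREB3L1 fell to 0.342 times its DMSO level. All 4 passed the test, against 66.9% of all genes, 32.8% up and 34.1% down. By size of the rise, CREB3L2 ranked 287, CREB3 2147 and CREB3L4 2701 of 19266 genes, and the fall of CREB3L1 ranked 698.

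CREB3L2 ranged from 64.3 to 70.9 CPM in DMSO at 8 h (median 70.0, n = 10) and from 327 to 392 CPM in R1881 (median 358, n = 10), a log2 fold change of 2.38 ± 0.03 (adjusted p = 1.04e-55). CREB3L1 ranged from 7.22 to 12.3 CPM in DMSO (median 9.36) and from 2.52 to 4.14 CPM in R1881 (median 3.15). The lowest DMSO library thus stood above the highest R1881 library, and the log2 fold change was −1.55 ± 0.10 (adjusted p = 6.2e-21). CREB3 ranged from 19.2 to 26.9 CPM in DMSO (median 23.4) and from 33.9 to 39.8 CPM in R1881 (median 36.5), with a log2 fold change of 0.65 ± 0.05. CREB3L4 ranged from 128 to 137 CPM in DMSO (median 133) and from 176 to 203 CPM in R1881 (median 195), with a log2 fold change of 0.54 ± 0.03. Neither gene's groups overlapped.

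The R1881 effect differed between the times for all 4 members, against 60.4% of all genes. In the interaction contrast, the effect at 22 h exceeded that at 8 h by 2.20 ± 0.13 (log2, SE) for CREB3L1, whose direction turned, by 0.84 ± 0.04 for CREB3L4 and by 0.34 ± 0.07 for CREB3. For CREB3L2 it was smaller at 22 h, with a difference of −0.75 ± 0.04. Time alone also moved the DMSO groups: from 8 h to 22 h CREB3L1 rose by 0.39 ± 0.09, CREB3L4 by 0.34 ± 0.03 and CREB3L2 by 0.12 ± 0.03, while CREB3 stood at −0.03 ± 0.05. That is 3 of 4 members, against 29.8% of all genes. With DMSO replicates 6 and above only, CREB3L1 did not pass (0.35, adjusted p = 0.0606). These time shifts in DMSO were smaller than the R1881 effects of the same genes.

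**Figure D2:**
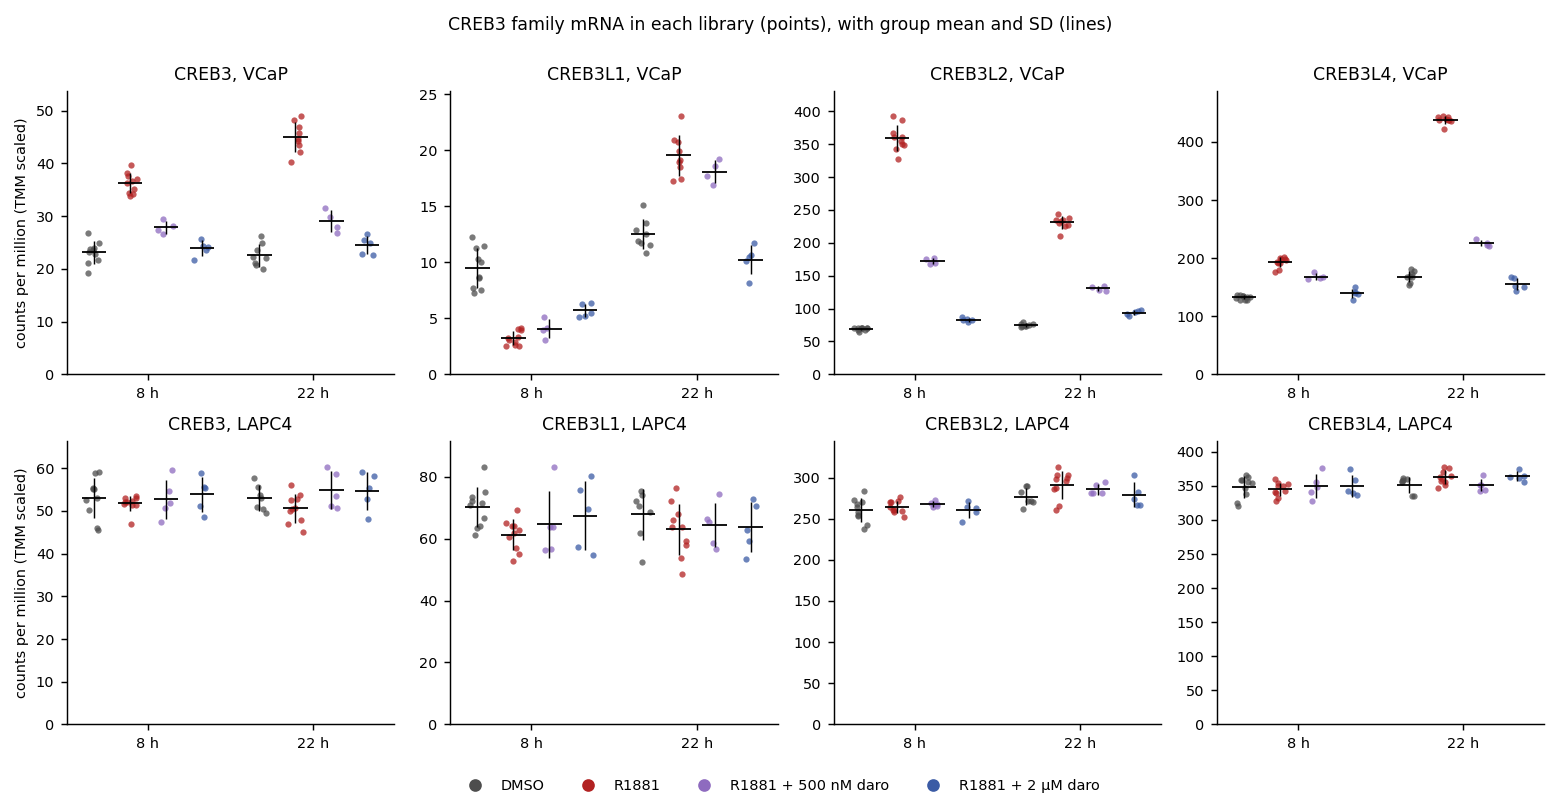
CPM, scaled by TMM, of the 4 tested family genes in each library of VCaP (top) and LAPC4 (bottom) at 8 h and 22 h, with points for libraries and lines for group means and SD. In VCaP the R1881 points of CREB3L2 lie between 327 and 392 CPM at 8 h and between 211 and 244 CPM at 22 h, and CREB3L1 is lowest at 8 h with R1881, while in LAPC4 the compared treatments overlap for every gene at each time.

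Darolutamide at 2 µM, given with R1881, returned the members toward their DMSO levels in VCaP. At 22 h all 4 fell against R1881 alone, CREB3L4 to 0.355 times, CREB3L2 to 0.406 times, CREB3L1 to 0.523 times and CREB3 to 0.544 times. All 4 passed the test, against 66.9% of all genes, of which 36.1% rose and 30.8% fell.

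The 5 CREB3L4 libraries with 2 µM darolutamide at 22 h held 167, 150, 143, 166 and 152 CPM, and those of CREB3L2 held 91.7, 94.6, 88.1, 96.4 and 97.8 CPM. All lay below the lowest R1881 library of the same gene. The log2 fold changes against R1881 were −1.49 ± 0.04 (SE, adjusted p = 2.2e-39) for CREB3L4 and −1.30 ± 0.03 (adjusted p = 9.9e-38) for CREB3L2. CREB3L1 held 10.6, 10.1, 11.7, 8.19 and 10.5 CPM in these libraries, and CREB3 held 26.5, 22.8, 25.0, 25.6 and 22.5 CPM. They too were separated from R1881 alone, with log2 fold changes of −0.94 ± 0.11 for CREB3L1 and −0.88 ± 0.06 for CREB3. GBA2 fell by a similar amount, with −0.78 ± 0.05, whereas SLC39A1 had −0.33 ± 0.04 and JTB did not pass the test (0.05 ± 0.05).

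At 8 h the same dose lowered CREB3L2 to 0.232 times, CREB3 to 0.658 times and CREB3L4 to 0.722 times the R1881 level and raised CREB3L1 to 1.75 times. The fall of CREB3L2 ranked 177 of 19266 genes, that of CREB3 1598 and that of CREB3L4 2263, and the rise of CREB3L1 ranked 1355. Each member thus moved against its own R1881 effect, and 4 of 4 passed, against 52.1% of all genes, 25.9% up and 26.2% down. CREB3L2 held 79.4, 84.3, 82.9, 87.6 and 82.0 CPM with 2 µM darolutamide, a log2 fold change of −2.11 ± 0.04 (SE, adjusted p = 1.18e-46). CREB3L1 held 6.33, 5.13, 6.31, 5.23 and 5.51 CPM, all above the highest R1881 library, with a log2 fold change of 0.81 ± 0.12 (adjusted p = 6.91e-08). CREB3 held 24.1, 24.4, 25.7, 23.6 and 21.6 CPM and CREB3L4 held 150, 128, 141, 139 and 141 CPM. Both were below all R1881 libraries, with log2 fold changes of −0.60 ± 0.06 and −0.47 ± 0.03. The darolutamide effect differed between 22 h and 8 h for all 4 members, against 48.5% of all genes, by −1.75 ± 0.16 for CREB3L1, −1.02 ± 0.05 for CREB3L4, −0.27 ± 0.08 for CREB3 and 0.81 ± 0.05 for CREB3L2. With R1881 replicates 6 and above only, CREB3 did not pass in this contrast (−0.22, adjusted p = 0.0517). These comparisons share their R1881 libraries with the comparisons of R1881 against DMSO.

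The lower dose of 500 nM had the same sign of effect with smaller sizes. At 22 h CREB3L4 held 226, 222, 222 and 232 CPM, CREB3L2 held 127, 133, 128 and 134 CPM, and CREB3 held 26.9, 31.6, 28.0 and 29.8 CPM. All lay below the R1881 libraries, with log2 fold changes of −0.96 ± 0.04, −0.82 ± 0.04 and −0.63 ± 0.06 (SE). CREB3L1 held 18.6, 19.2, 16.9 and 17.7 CPM and overlapped with R1881 alone, with −0.11 ± 0.11 (adjusted p = 0.407). Thus 3 of 4 members passed, against 53.0% of all genes, 26.7% up and 26.4% down.

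At 8 h, 500 nM darolutamide gave CREB3L2 values of 168, 169, 178 and 175 CPM, CREB3 values of 27.4, 28.1, 29.5 and 26.5 CPM and CREB3L4 values of 167, 165, 176 and 165 CPM. These 3 genes passed, against 30.6% of all genes, 14.9% up and 15.7% down, with log2 fold changes against R1881 of −1.06 ± 0.04, −0.38 ± 0.06 and −0.20 ± 0.04 (SE). CREB3L1 held 4.13, 3.95, 5.15 and 3.10 CPM, which overlapped with R1881 alone, and its 0.32 ± 0.14 did not pass (adjusted p = 0.0804). Without the fourth 500 nM replicate, the library at 3.10 CPM, it passed with 0.45 (adjusted p = 0.0152). It also passed with the first principal component of the VCaP libraries' deviations from their group means as a covariate (0.31, adjusted p = 0.0428).

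The 2 doses differed from each other for 4 of 4 members at both times. At 22 h, 2 µM against 500 nM gave −0.82 ± 0.12 (log2, SE) for CREB3L1, −0.54 ± 0.04 for CREB3L4, −0.48 ± 0.04 for CREB3L2 and −0.25 ± 0.07 for CREB3, where 20.2% of all genes were called, 10.4% up and 9.75% down. At 22 h CREB3L1 thus fell with 2 µM and had −0.11 ± 0.11 with 500 nM. At 8 h the differences were −1.05 ± 0.04 for CREB3L2, −0.27 ± 0.04 for CREB3L4, −0.22 ± 0.07 for CREB3 and 0.49 ± 0.15 for CREB3L1, where 17.6% of all genes were called, 7.53% up and 10.0% down. At 8 h the calls of CREB3 and CREB3L1 were lost without the first darolutamide replicate, with adjusted p = 0.0842 and adjusted p = 0.0582, which left 2 of 4. CREB3 at 22 h was lost without the second (adjusted p = 0.134) and at 8 h without the fifth (adjusted p = 0.119) or without a filter on low counts (adjusted p = 0.0605), and CREB3L1 at 8 h without the fourth (adjusted p = 0.0832).

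In cells with R1881 and 2 µM darolutamide, CREB3L2 stood 0.32 ± 0.03 above DMSO at 22 h (log2, SE) and 0.27 ± 0.03 above it at 8 h. The groups did not overlap at either time. No group received darolutamide without R1881, so remaining R1881 action and an effect of darolutamide itself cannot be told apart. CREB3L1 stood below DMSO, by −0.29 ± 0.11 at 22 h and −0.74 ± 0.11 at 8 h. At 22 h CREB3L4 was also lower, by −0.11 ± 0.04, while CREB3 did not pass (0.12 ± 0.06, adjusted p = 0.0962), which makes 3 of 4 members against 59.0% of all genes. At 8 h neither CREB3L4 (0.07 ± 0.03, adjusted p = 0.110) nor CREB3 (0.05 ± 0.06, adjusted p = 0.589) passed, which makes 2 of 4 against 27.5%. The CREB3L1 call at 22 h was lost without the fourth darolutamide replicate (−0.24, adjusted p = 0.0602), the library with 8.19 CPM, and with DMSO and R1881 replicates 1 to 5 only (−0.26, adjusted p = 0.0555). With replicate numbers as a block, 1 of 4 members was called at 22 h, against 8662 of 17665 genes. Other settings added calls. CREB3 passed at 22 h with the first principal component as a covariate (0.12, adjusted p = 0.0280). CREB3L4 passed at 8 h without the second darolutamide replicate (0.10, adjusted p = 0.0460).

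**Figure D3:**
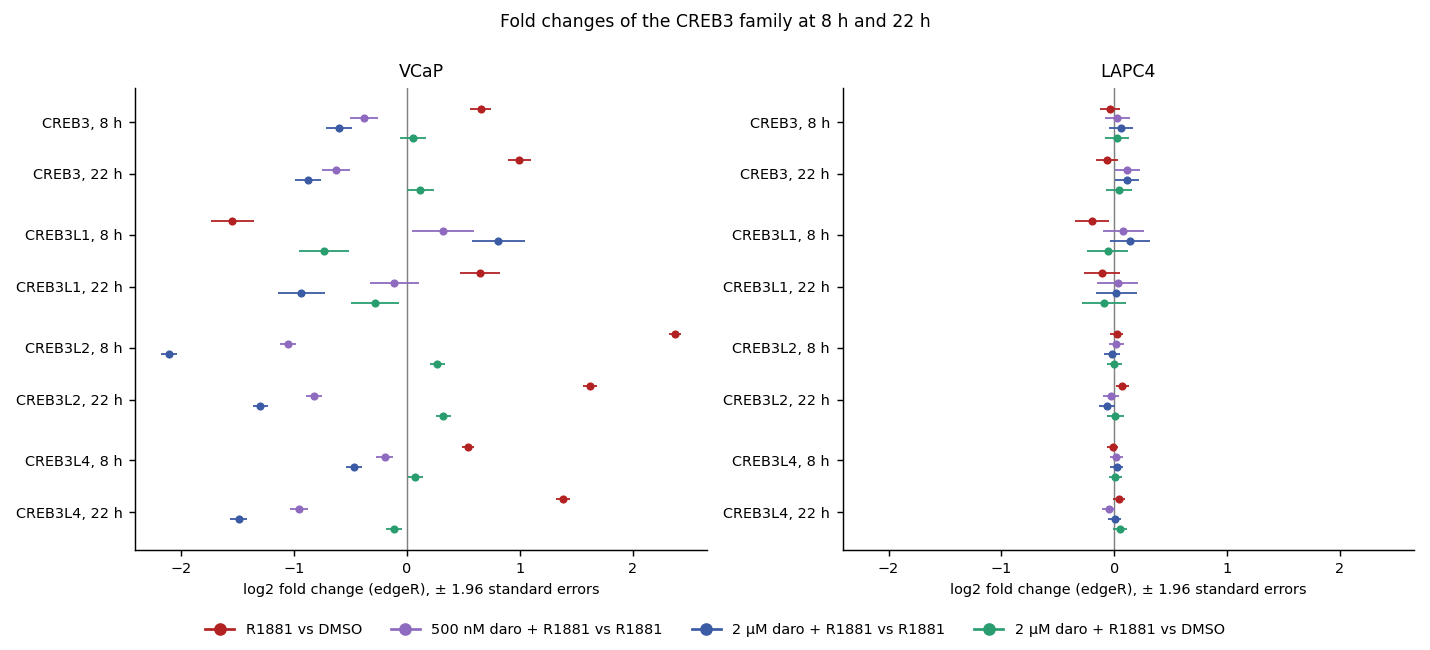
log2 fold changes from edgeR (x axis) of the 4 tested family genes at 8 h and 22 h in VCaP (left) and LAPC4 (right), with points for estimates and bars for 1.96 standard errors to each side. In VCaP the R1881 effect (red) of CREB3L2 is 2.38 at 8 h and that of CREB3L1 is −1.55, each darolutamide effect against R1881 (purple, blue) lies on the other side of 0 at 8 h, green points set 2 µM darolutamide against DMSO, and all LAPC4 points lie between −0.20 and 0.14.

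In LAPC4 cells no member passed the test in any of 10 comparisons of treatments. FKBP5 rose with R1881 at 22 h in this line, with the log2 fold change of 1.36 given above, and fell with 2 µM darolutamide against R1881, with −1.35 ± 0.04 (SE). Of 40 member values, the lowest log2 fold change was −0.20, the highest was 0.14, and the 95% limits reached at most 0.35 from 0. Fewer genes responded in this line at all. R1881 changed 13.3% of genes at 22 h and 2.64% at 8 h, 2 µM darolutamide with R1881 changed 10.5% and 1.54% against R1881, and 500 nM changed 5.89% and 0.626%. The doses differed for 0.258% and 0.0275% of genes, and 2 µM darolutamide with R1881 differed from DMSO for 0.0165% and 0.0110%. The R1881 effect differed between times for 3.21% and the 2 µM darolutamide effect for 1.77% of genes, with 0 of 4 members in each.

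The members' levels spread over narrow ranges in LAPC4. CREB3L4 ranged from 321 to 378 CPM over all 57 LAPC4 libraries, CREB3L2 from 237 to 313, CREB3L1 from 48.7 to 83.3 and CREB3 from 45.1 to 60.4 CPM. Within each time, the compared treatment groups overlapped for each gene. With R1881 against DMSO at 22 h, CREB3L2 had 0.07 ± 0.03 (log2, SE, adjusted p = 0.133), CREB3L4 0.04 ± 0.03, CREB3 −0.07 ± 0.05 and CREB3L1 −0.11 ± 0.08. At 8 h the values were −0.20 ± 0.08 for CREB3L1 (adjusted p = 0.236), 0.02 ± 0.03 for CREB3L2, −0.04 ± 0.05 for CREB3 and −0.02 ± 0.02 for CREB3L4. Before adjustment, p was under 0.05 for CREB3L2 at 22 h and CREB3L1 at 8 h, and for CREB3 at 22 h with 2 µM darolutamide (0.11 ± 0.06) and with 500 nM (0.12 ± 0.06) against R1881.

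These LAPC4 values moved with a difference between libraries that the labels do not name. The first principal component of the libraries' deviations from their group means took 29.1% of the variance. Over 57 libraries, the members' own deviations correlated with it at Pearson's r of 0.84 for CREB3L1, 0.82 for CREB3, 0.44 for CREB3L4 and −0.64 for CREB3L2. VCaP had such a component as well, with 21.6% of the variance. Over 55 libraries, r with it was −0.65 for CREB3, −0.51 for CREB3L1, 0.42 for CREB3L2 and −0.0007 for CREB3L4. With the LAPC4 component as a covariate, CREB3L1 (−0.11, adjusted p = 0.0334) and CREB3L2 (0.07, adjusted p = 0.0154) passed for R1881 at 22 h, and CREB3L1 passed at 8 h (−0.20, adjusted p = 5.94e-05). CREB3 passed at 22 h for 2 µM (0.11, adjusted p = 0.0104) and 500 nM darolutamide (0.11, adjusted p = 0.0122). These sizes stayed close to those without the covariate, which was fixed in advance because the component comes from deviations from group means. It was estimated from the same libraries, so p with it as a covariate can be too small. The calls over all 18204 genes also rose with it, for R1881 from 2418 to 4911 at 22 h and from 481 to 2218 at 8 h. At 22 h they rose from 1906 to 3902 for 2 µM and from 1072 to 2229 for 500 nM darolutamide. From 8 h to 22 h in DMSO, CREB3L2 alone was called, with 0.09 ± 0.03 (adjusted p = 0.0347), 1 of 4 members against 22.1% of genes.

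The lines differed in the R1881 effect on each of the 4 members. At 22 h the effect in VCaP exceeded that in LAPC4 by 1.49 ± 0.05 (log2, SE) for CREB3L2, 1.28 ± 0.04 for CREB3L4, 1.00 ± 0.07 for CREB3 and 0.70 ± 0.11 for CREB3L1. All were called up, against 31.6% of genes up and 68.5% in either direction. At 8 h the differences were 2.27 ± 0.04 for CREB3L2, 0.60 ± 0.06 for CREB3, 0.47 ± 0.04 for CREB3L4 and −1.44 ± 0.12 for CREB3L1, 4 of 4 against 58.5%.

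In DMSO at 22 h all 4 members were lower in VCaP than in LAPC4, by −2.23 ± 0.09 for CREB3L1, −1.67 ± 0.04 for CREB3L2, −1.02 ± 0.05 for CREB3 and −0.85 ± 0.03 for CREB3L4 (log2, SE). Between the lines 87.2% of genes differed, and 44.6% of genes were lower in VCaP. These differences come from the joint fit, whereas the CPM ranges that follow were scaled within each line and are not on 1 scale. After 22 h of R1881, CREB3L4 in VCaP (423 to 444 CPM) lay above every LAPC4 library, and after 8 h CREB3L2 in VCaP (327 to 392 CPM) did as well. CREB3L1 reached at most 23.0 CPM in VCaP, below every LAPC4 library, and CREB3 reached 48.9 CPM, within the LAPC4 range.

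Genes reported as targets of the family rose with R1881 in VCaP. The lists of targets and partners were written with earlier results of these data known. Of 10 tested genes reported as targets of CREB3L1 or CREB3L2, 5 of them parts of the COPII coat that carries cargo out of the ER, 9 rose at 22 h, against 37.4% of all genes, and COL1A1, a collagen chain, did not pass (−0.28 ± 0.25). The median log2 fold change was 1.60, against −0.03 over all genes, and at 8 h 9 rose with a median of 0.67, against 32.8% of all genes. Among them SEC24D, a cargo adaptor of the coat, had 2.60 ± 0.04 (SE), SEC61A1, the channel into the ER, had 1.66 ± 0.03, SEC24A had 1.75 ± 0.04 and SEC23B had 1.26 ± 0.03 at 22 h. Darolutamide at 2 µM lowered 9 of 10 at both times, where 30.8% and 26.2% of all genes fell at 22 h and 8 h, with medians of −0.94 and −0.53. At 8 h these genes rose while CREB3L2 rose and CREB3L1 fell, and which factor acted on them was not tested.

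The 3 tested genes reported as targets of CREB3 all rose: HERPUD1, which helps to remove misfolded proteins, by 1.75 ± 0.03, ARF4, a GTPase of the Golgi, by 1.46 ± 0.04, and EDEM1, a lectin of ER-associated degradation, by 1.72 ± 0.05 (log2, SE) at 22 h. The share of all genes that rose was 37.4% at 22 h and 32.8% at 8 h. The median of the 3 targets was 1.72 at 22 h and 1.41 at 8 h, and all 3 fell with 2 µM darolutamide, with medians of −1.29 and −1.18. With that dose 30.8% of all genes fell at 22 h and 26.2% at 8 h. Which factor acted on these 3 genes was not tested. None of 9 genes reported for CREB3L3 was read often enough in VCaP to be tested. In LAPC4 at 22 h, where 6.83% of all genes rose and 6.45% fell, 2 of 3 CREB3 targets rose, HERPUD1 by 0.11 ± 0.03 and EDEM1 by 0.10 ± 0.04. Of the 10 CREB3L1 and CREB3L2 targets, SEC23B rose by 0.11 ± 0.03, SEC61A1 by 0.06 ± 0.02 and KDELR3, a receptor that returns ER proteins, had −0.13 ± 0.03. CIDEC, a lipid droplet protein and the 1 tested CREB3L3 target in LAPC4, did not pass (−0.41 ± 0.31).

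Among proteases and regulators listed for membrane-bound factors, more genes rose than fell with R1881 in VCaP. The list includes the SREBP escort SCAP and its ER anchor INSIG1. Of 11 tested genes of this kind, 7 rose and 1 fell in VCaP at 22 h, with a median of 0.42, and 5 rose and 1 fell at 8 h, with a median of 0.07. Of all genes, 37.4% rose and 40.0% fell at 22 h, and 32.8% rose and 34.1% fell at 8 h. MBTPS1, the site-1 protease, stood at 0.01 ± 0.02 (SE) and did not pass, and MBTPS2, the site-2 protease, rose by 0.20 ± 0.05 at 22 h. The strongest rises were those of INSIG1, which holds the SREBP escort SCAP in the ER, with 3.27 ± 0.05, HSPA5, the chaperone BiP, with 1.75 ± 0.03, SYVN1, a ubiquitin ligase of the ER, with 1.59 ± 0.06, and SEL1L, its partner, with 0.59 ± 0.04. With 2 µM darolutamide 6 fell and 2 rose at 22 h, where 30.8% of all genes fell and 36.1% rose. At 8 h 5 fell and 0 rose, where 26.2% of all genes fell and 25.9% rose. In LAPC4 with R1881 at 22 h, where 6.83% of all genes rose, SCAP alone rose, by 0.34 ± 0.08.

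Of 6 other transcription factors made as membrane proteins, which are released in different ways, 3 rose and 2 fell in VCaP with R1881 at 22 h, with a median of 0.24. Of all genes, 37.4% rose and 40.0% fell, so these shares are near the background. SREBF1 and SREBF2, which control lipid synthesis, rose by 2.06 ± 0.16 and 0.75 ± 0.05 (SE), NFE2L1, a regulator of proteasome genes, rose by 0.49 ± 0.04, and ATF6B had −0.58 ± 0.08, a fall. ATF6, the stress sensor cut by the same proteases, stood at −0.01 ± 0.04 and did not pass. Of 10 soluble CREB and ATF relatives, 6 rose and 3 fell at 22 h, with a median of 0.37, and 9 rose and 1 fell at 8 h, with a median of 0.45, where 32.8% of all genes rose and 34.1% fell. XBP1, the factor spliced by IRE1, rose by 1.07 ± 0.03, ATF5 by 2.16 ± 0.07, CREM by 0.92 ± 0.07 and DDIT3 by 0.59 ± 0.05 at 22 h. With 2 µM darolutamide 9 of the 10 soluble relatives fell at 22 h and 8 fell at 8 h, with medians of −0.48 and −0.36. Of the 6 membrane-bound factors, 3 fell and 1 rose at 22 h with that dose, and 2 fell at 8 h. The shares of all genes that fell were 30.8% at 22 h and 26.2% at 8 h. In LAPC4 none of the 6 membrane-bound factors passed with R1881 at 22 h, and of 11 soluble relatives CREB5 had −0.24 ± 0.04 and XBP1 −0.08 ± 0.02, both falls. Of all genes, 6.83% rose and 6.45% fell there.

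**Figure D4:**
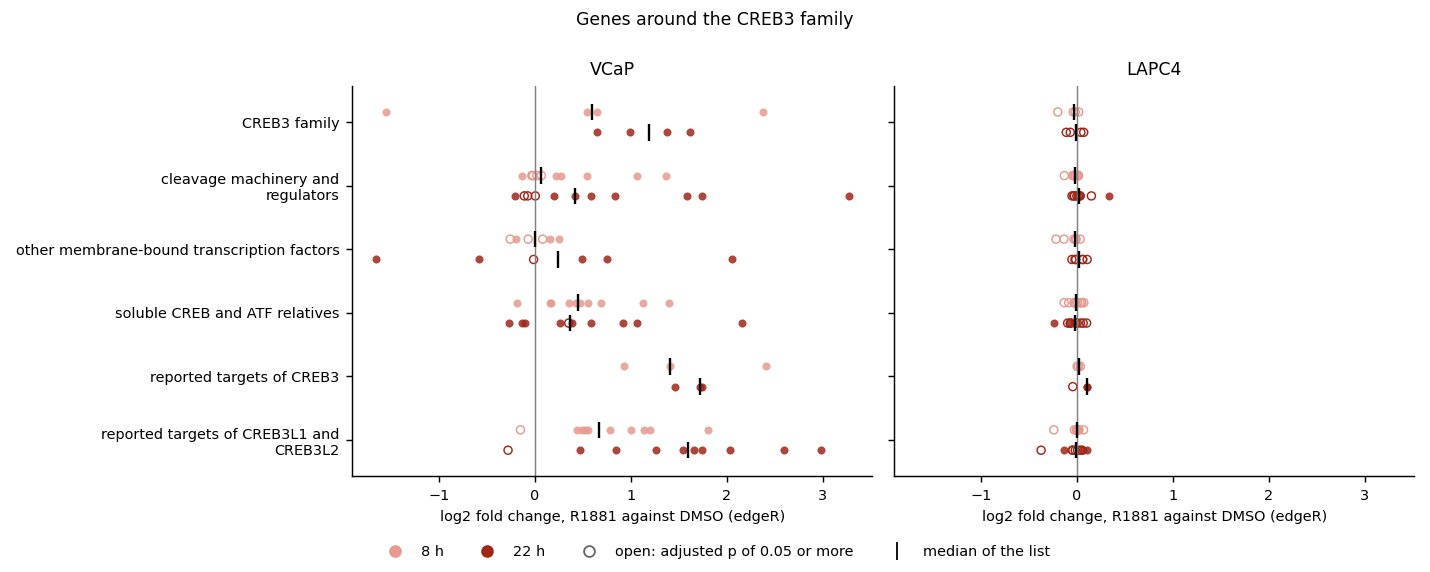
log2 fold changes of R1881 against DMSO (x axis, edgeR) for the genes of 6 lists in VCaP (left) and LAPC4 (right), with points for genes at 8 h and 22 h, open where the adjusted p is 0.05 or more, and bars for list medians. In VCaP the reported targets of CREB3 and of CREB3L1 and CREB3L2 have medians of 1.72 and 1.60 at 22 h, and in LAPC4 all list medians lie near 0.

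The genes with the most similar profile over the 55 VCaP libraries differed between members. By Pearson's r of log2 CPM, among tested genes above the median level, CREB3L2 was closest to SIM2 (0.99), EEF2K (0.99) and LARP4B (0.99), CREB3L4 to RAB3D (0.99), KCNMA1 (0.98) and PDXDC1 (0.98), CREB3 to GOLGA2 (0.96), CDKN1A (0.96) and BCL2L1 (0.96), and CREB3L1 to TCEA3 (0.95), ANXA11 (0.95) and LINC01128 (0.95). All libraries come from the same 8 groups, so these values are not independent of treatment. As many as 432 genes reached r of 0.9 or more with CREB3L2, 303 with CREB3L4, 279 with CREB3 and 35 with CREB3L1. Between members, r was 0.85 for CREB3 with CREB3L2 and with CREB3L4, 0.60 for CREB3L2 with CREB3L4 and −0.36 for CREB3L1 with CREB3L2.

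Over the 57 LAPC4 libraries no gene reached 0.9. The closest were ARID5B (0.896), EPHA3 (0.89) and LAMC1 (0.88) for CREB3L2, TMEM184B (0.87), SSBP3 (0.87) and BCL9L (0.86) for CREB3L1, TPI1 (0.85), its pseudogene TPI1P1 (0.81) and SLC39A7 (0.79) for CREB3L4, and NDUFA2 (0.82), RHOB (0.82) and MRPL52 (0.81) for CREB3. No gene was among the 3 closest of a member in both lines. The members' deviations in LAPC4 also followed the unnamed component given above, and its part in these values was not tested.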

How the data were processed

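RNA of VCaP and LAPC4 cells was sequenced from poly(A) libraries made with a stranded kit, 50 cycles single-end. Per the submitters' processing notes and the paper's methods, the authors converted reads with bcl2fastq 2.17, used STAR for alignment to GRCh38, and obtained gene counts from featureCounts (Subread package). They deposited raw counts without normalization in 1 table of 112 libraries, and its 112 columns were all assigned to samples by their labels. Versions of the aligner and counter, the annotation and the strand setting are not given in the sources used here. The methods name fewer biological replicates than the DMSO and R1881 groups have libraries, so p-values measure the spread between libraries, which may in part be technical.

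All further values derive from those deposited counts. A gene was tested in a line if 4 or more of its libraries held 10 or more reads. The 8 groups of a line were fitted together in edgeR 4.0.16 (R 4.3.3) with TMM scaling, glmQLFit and glmQLFTest, and comparisons between the lines in a fit of all 16 groups. Calls have a Benjamini-Hochberg adjusted p under 0.05 over all tested genes, and every adjusted p in the text is of this kind. Standard errors (SE) were derived from the log2 fold change and the F statistic. CPM use TMM factors estimated within each line, and log2 CPM a prior count of 2. At this depth the tested members had at least 44 reads in every library. The test was tried on simulated data. Alternatives were DESeq2 1.42.0, other filters, fits of the compared groups, the first principal component as covariate, subsets of control replicates, a replicate block and the omission of single darolutamide replicates. The component was taken from the deviations of the same libraries from their group means. As a covariate it can hardly shift a fold change, and p with it can be too small.

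The members and gene lists were chosen with earlier results of these data known. Beyond the members, the text names up to 4 genes per list and line with the smallest adjusted p for R1881 at 22 h and the 3 most similar genes per member and line. COL1A1, MBTPS1, MBTPS2, ATF6, EDEM1, KDELR3, SEC61A1, CIDEC, XBP1 in LAPC4 and the overlapping neighbors were named after their values were seen where this rule does not reach them. Promoters come from the RefSeq table of GRCh38.p14, which held all 5 members, and gene positions from GENCODE 44.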

Additional observations from a re-analysis of the deposited data

Results flagged for a closer look

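Among 68 groups of 4 to 10 libraries tested for a library far from the rest, 7 stood out. Of these, 3 are groups in which 1 library alone held CREB3L3 reads, which meets the criterion by construction. Outside CREB3L3 there were 4, and chance gives about 1 in 20 groups. For CREB3, replicate 4 of LAPC4 R1881 at 8 h was lowest at 47.0 CPM, next to 51.4 CPM. For CREB3L1, replicate 1 of LAPC4 with 500 nM darolutamide at 8 h was highest at 83.0 CPM, next to 63.7 CPM. CREB3L2 had its lowest value in VCaP DMSO at 8 h in replicate 2, with 64.3 CPM next to 67.5 CPM. CREB3L4 had its lowest value in VCaP R1881 at 22 h in replicate 6, with 423 CPM next to 435 CPM. In the CREB3L3 groups there were 4 reads in replicate 3 of VCaP with 2 µM darolutamide at 8 h, 2 reads in replicate 4 of VCaP with 500 nM at 22 h and 1 read in replicate 2 of LAPC4 with 500 nM at 8 h.

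Effects differed between times or lines by edgeR's interaction contrasts (log2, adjusted p under 0.05) for 4 of 4 tested members in each case. The shares of all genes were 60.4%, 48.5%, 68.5% and 58.5%, in the order given here. The R1881 effect in VCaP at 22 h minus that at 8 h was 0.34 for CREB3, 2.20 for CREB3L1, −0.75 for CREB3L2 and 0.84 for CREB3L4. The effect of 2 µM darolutamide in VCaP differed in the same way by −0.27 for CREB3, −1.75 for CREB3L1, 0.81 for CREB3L2 and −1.02 for CREB3L4. The R1881 effect in VCaP minus that in LAPC4 at 22 h was 1.00 for CREB3, 0.70 for CREB3L1, 1.49 for CREB3L2 and 1.28 for CREB3L4. At 8 h it was 0.60 for CREB3, −1.44 for CREB3L1, 2.27 for CREB3L2 and 0.47 for CREB3L4.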

How the results depend on the processing

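The VCaP responses to R1881 of the 4 tested members kept their direction and their call under all alternatives run. Over 1284 member values under alternatives, 75 changed sign, 73 of them in LAPC4, and 0 of these were called values. Of 321 counts of called members, 20 moved by over 1.5 times, and DESeq2 moved 0 of 29. With the first principal component as covariate, LAPC4 counts rose from 0 to 2 for R1881 at 22 h. They rose to 1 each for R1881 at 8 h and for 2 µM and 500 nM darolutamide against R1881 at 22 h. In that order, 4911, 2218, 3902 and 2229 of 18204 genes were called. The component was estimated from the same libraries, so these calls may be too many. With DMSO and R1881 replicates 1 to 5 only, LAPC4 counts rose to 1 each for R1881 and 2 µM darolutamide against R1881 at 22 h. There 1639 and 2257 of 17999 genes were called. With only the compared groups, the LAPC4 count rose to 1 for R1881 at 8 h, with 423 of 17420 genes called. The LAPC4 count for DMSO over time fell from 1 to 0 without a filter, with replicates 1 to 5 and with the replicate block. In that order, 3121 of 40043, 2908 of 17999 and 3046 of 17389 genes were called. In VCaP, leaving out single darolutamide replicates gave 2 to 4 members for 2 µM against 500 nM at 8 h. Without replicate 1 the count was 2, with 2787 of 19218 genes called. The cause was not tested in any of these cases.

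Values that changed sign were small. With replicates 1 to 5 of DMSO and R1881 only, the LAPC4 R1881 effect at 8 h was 0.042 for CREB3, −0.0040 for CREB3L2 and 0.016 for CREB3L4, and CREB3 in VCaP DMSO over time was 0.0085. With replicates 6 and above, the LAPC4 R1881 effect at 22 h was 0.016 for CREB3L1 and −0.0063 for CREB3L2, and CREB3 in VCaP with 2 µM darolutamide against DMSO at 8 h was −0.0099.

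Deviations of same-numbered libraries correlated at −0.0051 on average in VCaP, from −0.50 to 0.46, with 33 of 149 pairs over 0.1. In LAPC4 the average was 0.055, from −0.57 to 0.60, with 57 of 161 pairs over 0.1. Since not every pair was over 0.1, the numbers were not taken as pairs. Libraries with different numbers were not compared in this way, so the check cannot show that same-numbered libraries are unpaired. With the replicate block, the VCaP count for 2 µM darolutamide against DMSO at 22 h went from 3 to 1, as CREB3L1 (adjusted p = 0.113) and CREB3L4 (adjusted p = 0.1495) lost their calls. In that fit 8662 of 17665 genes were called. CREB3 lost its calls for 2 µM against 500 nM at 22 h (adjusted p = 0.0659) and 8 h (adjusted p = 0.108). LAPC4 counts went from 0 to 2 for 2 µM and to 1 for 500 nM darolutamide against R1881 at 22 h. There 3118 of 16917 and 993 of 16870 genes were called. With the block and the first principal component, LAPC4 counts were 3 for R1881 at 22 h, 1 for R1881 at 8 h, 2 each for 2 µM and 500 nM against R1881 at 22 h, and 1 each for 2 µM against DMSO at 22 h and 8 h. In that order, 4521 of 17311, 2184 of 17420, 5115 of 16917, 2882 of 16870, 1251 of 17142 and 1255 of 17072 genes were called. Depth limits CREB3L3, which was not tested, and CREB3L1 in VCaP, with as few as 44 reads in a library.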
